A study of Mus musculus with 10 samples.

Results

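The genes of MHC class I antigen processing were followed in cultured natural killer cells (NKC) that lacked the transcription factor Runx3 and in their wild-type counterparts. The set held 10 genes, B2m, Tap1, Tap2, Tapbp, Psmb8, Psmb9, Psmb10, Nlrc5, Erap1 and H2-Q10, chosen by name from the gene symbols of the array, out of 18194 genes with a probe set of their own. All 10 reached log2 5 in at least 2 arrays and were tested among 9391 genes. They had 17 probe sets, of which 14 passed that limit, and the probe set with the highest mean over the 10 arrays stood for its gene.

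Affymetrix mouse arrays measured RNA in NKC from spleens of ICR mice, an outbred stock, aged 6 weeks. The 4 groups were Runx3-/- (KO) NKC in mouse IL-15 (2 arrays), Runx3 +/+ (WT) NKC in IL-15 (2 arrays), KO NKC in recombinant human IL-2 (3 arrays) and WT NKC in IL-2 (3 arrays). NKC of every group were enriched by negative selection and then grown for 7 days, those in IL-2 at 1000 u/ml. The methods add a sort for DX5, a marker of NKC. The labels give each sample a mouse of its own. The KO mice carried the deletion in the germ line, so their cells had also developed without Runx3, and the labels give sex only as male or female. The H2 haplotypes of these outbred mice are not given in the sources used here.

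Cells display fragments of their own proteins on MHC class I molecules. The proteasome cuts the proteins, the TAP transporter carries the peptides into the endoplasmic reticulum, aminopeptidases trim them, and tapasin helps to load them onto a heavy chain paired with beta-2-microglobulin. Interferons induce the immunoproteasome subunits, which take the place of the constitutive catalytic subunits, and most of the rest of the pathway, and NKC read the class I molecules of other cells through inhibitory receptors.

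Promoters are shown first, because several of these genes share regulatory letters or lie side by side. A RefSeq window of 250 bases before and 50 bases from the start on (GRCm38.p6) was available for 8 of the 10 genes. The motifs below, 6 in all, were searched for on both strands: the interferon-stimulated response element (ISRE, the letters GAAA repeated after 2 bases of any kind), the gamma-activated site (GAS, TTCNNNGAA), the RUNX site (TGTGGT or TGTGGC or TGCGGT or TGCGGC), the NF-kB consensus, the core of the cyclic AMP response element (CRE, TGACG) and the CCAAT box (CCAAT). Psmb9 and Tap1 are neighbours that run in opposite directions, and 225 bases separate their starts, at chr17:34187331-34187555, printed on the plus strand, which is that of Tap1. B2m is shown at chr2:122147437-122147686 (plus strand) for its row of different matches, Psmb10 at chr8:105938393-105938642 (minus strand) for its RUNX matches, and H2-Q10 at chr17:35469839-35470088 (plus strand) as the gene that fell in KO NKC in IL-2. Capitals mark matches on either strand.
Psmb9 to Tap1: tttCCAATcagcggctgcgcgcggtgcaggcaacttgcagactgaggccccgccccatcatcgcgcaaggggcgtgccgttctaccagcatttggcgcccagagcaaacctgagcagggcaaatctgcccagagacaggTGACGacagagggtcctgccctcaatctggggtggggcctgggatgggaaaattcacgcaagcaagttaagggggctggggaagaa
B2m: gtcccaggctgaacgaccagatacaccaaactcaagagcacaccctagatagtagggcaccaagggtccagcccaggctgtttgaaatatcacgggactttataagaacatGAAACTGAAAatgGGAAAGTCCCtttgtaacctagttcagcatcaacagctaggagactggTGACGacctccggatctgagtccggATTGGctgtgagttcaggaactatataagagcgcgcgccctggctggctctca
Psmb10: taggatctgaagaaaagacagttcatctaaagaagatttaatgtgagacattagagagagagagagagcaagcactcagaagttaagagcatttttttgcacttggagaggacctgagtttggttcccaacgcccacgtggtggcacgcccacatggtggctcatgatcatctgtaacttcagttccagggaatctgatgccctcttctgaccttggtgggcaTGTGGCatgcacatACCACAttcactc
H2-Q10: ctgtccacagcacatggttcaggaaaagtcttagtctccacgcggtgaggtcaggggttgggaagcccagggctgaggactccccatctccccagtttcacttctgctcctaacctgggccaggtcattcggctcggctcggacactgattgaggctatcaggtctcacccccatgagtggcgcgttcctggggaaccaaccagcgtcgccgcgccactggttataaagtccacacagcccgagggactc

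The ISRE was in the windows of B2m and Erap1, 2 of 8, and in 3.44% of the 32851 mouse windows. The GAS was in 1 of 8, that of Psmb8, and in 8.3% of all windows, and the NF-kB consensus was in 1 of 8, that of B2m, and in 8.46%. The CRE core was in 3 of 8 (B2m, Psmb9 and Tap1) and in 20.8% of all windows, and the CCAAT box was in 4 of 8 (the same genes and Tapbp) and in 37.4%. Psmb9 and Tap1 hold 1 shared copy of each, since their windows overlap. RUNX letters were in 3 of 8, those of Psmb8, Psmb10 and Tapbp, and in 45.2% of all windows. The H2-Q10 window held none of the 6 motifs, which says only that these letters are not in it. In the gene order of chromosome 17, Psmb9, Tap1, Psmb8 and Tap2 follow each other, between H2-DMb1 and H2-Ob.

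**Figure D1:**
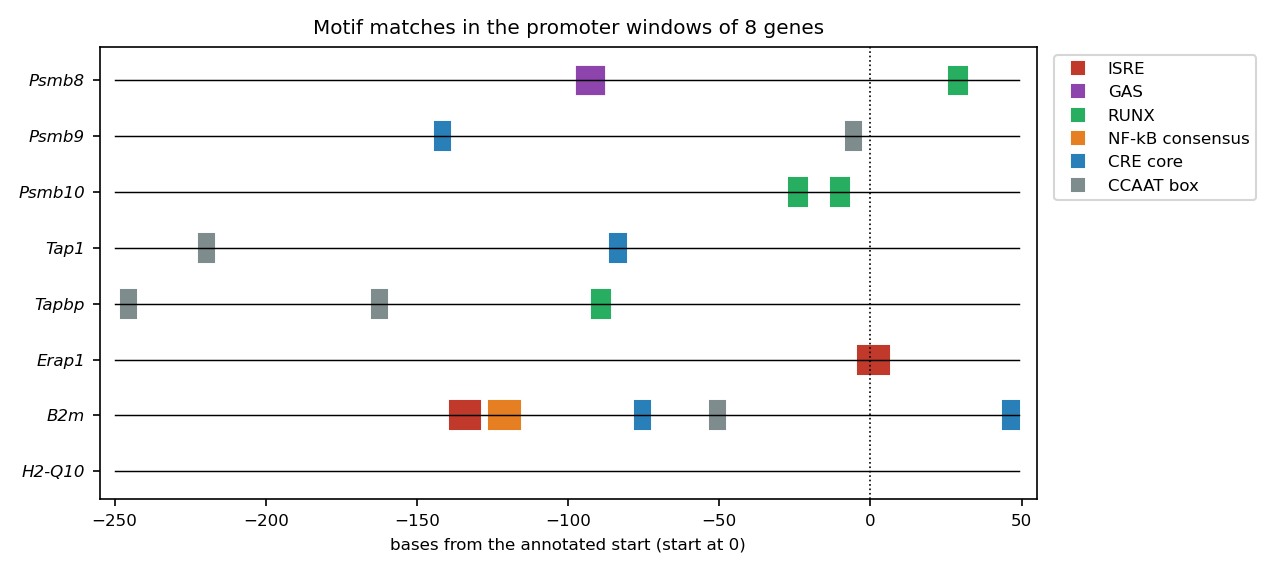
Motif matches by distance in bases from the annotated start (x axis) in the windows of 8 genes (rows), with 1 colour per motif. B2m holds 4 kinds of motif, Psmb10 has 2 RUNX matches just before its start, and H2-Q10 has no match.

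In the deposited values, differences between numbered pairs of KO and WT arrays had been removed: the sum of a pair's 2 arrays was the same for every pair of a cytokine, within 0.00014 over 45101 probe sets. Each KO array is therefore the mirror image of the WT array of its number around the cytokine mean, both groups have the same SD, and KO and WT arrays cannot overlap where all pairs move one way. Errors below are the SD over pairs of the KO minus WT difference (3 pairs in IL-2, 2 in IL-15). Genes were called at an adjusted p under 0.05 (limma, pair as a block) and at least 1.5-fold, and only called genes are said to have risen or fallen.

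The brighter Runx3 probe set had 11.41, 11.15 and 10.66 in KO arrays in IL-2 against 11.31, 11.57 and 12.06 in WT arrays, and 11.41 and 11.35 in KO arrays in IL-15 against 12.45 and 12.51 in WT arrays. Runx3 RNA thus overlapped between the genotypes in IL-2, and where this probe set lies relative to the deleted part is not given, so it does not check the labels. All 12 measured NKC markers exceeded log2 5 on every array. Of 9 T cell markers, Cd3e (5.22 to 7.36), Cd3d (5.36 to 7.80), Cd3g (7.17 to 11.22), Cd28 (10.60 to 12.66) and Cd247 (9.97 to 11.70) also did so on every array, and Cd4, Cd8a, Cd8b1 and Cd5 on none. Of 7 measured B cell markers, Ighm (8.64 to 11.66) did so on every array, Blk (1.97 to 8.75) on some, and Cd79a, Cd79b, Ms4a1, Pax5 and Cd22 on none. Xist had 14.28 to 14.66 in all IL-15 arrays and 4.64 to 5.37 in all IL-2 arrays, and the Y-linked Eif2s3y 2.34 to 2.43 in IL-15 arrays and 7.31 to 9.17 in IL-2 arrays, so that cytokine and the sex of the mice cannot be told apart.

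In IL-2, the immunoproteasome subunits Psmb9 and Psmb10, Tap1 and the class I transactivator Nlrc5 rose in KO NKC, while H2-Q10 fell. Of the 10 genes 4 rose, 1 fell and 5 did not pass, whereas 10.5% of all tested genes rose, 9.17% fell and 19.7% did either. The median KO minus WT difference of the 10 genes was 0.60, against 0.11 for all tested genes. KO and WT arrays did not overlap for any of the 10, with 8 higher and 2 lower in KO, a property that 54.4% of all tested genes shared (31.1% higher and 23.2% lower).

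Psmb9 encodes the immunoproteasome subunit that takes the place of Psmb6. Its log2 signal was 13.25, 13.28 and 13.45 in KO arrays in IL-2, against 11.93, 11.90 and 11.72 in WT arrays. The pair differences were 1.33, 1.38 and 1.73, each higher in KO. Psmb9 rose by 1.48 ± 0.22, or 2.79-fold (adjusted p = 0.00919).

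Psmb10, which replaces Psmb7, had 13.14, 12.82 and 13.29 in KO arrays in IL-2 against 11.56, 11.88 and 11.41 in WT arrays. The second pair was the closest, and the genotypes stayed apart. Psmb10 rose by 1.47 ± 0.48, or 2.77-fold (adjusted p = 0.015). Without the first pair the call was lost, at an adjusted p of 0.085, the highest over the alternatives tried (0.0003 to 0.085).

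Psmb8, the counterpart of Psmb5, is the other immunoproteasome subunit. It had 13.49, 13.41 and 13.66 in KO arrays in IL-2 against 12.99, 13.07 and 12.82 in WT arrays. All 3 pairs were higher in KO, but the difference of 0.56 ± 0.26 did not pass (adjusted p = 0.15). Its dimmer probe set, at 9.55 to 11.04 over all arrays, gave 0.92 ± 0.52 and also did not pass (adjusted p = 0.0699 over all probe sets).

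The constitutive subunits that these 3 replace were not called. In IL-2, KO minus WT was 0.07 ± 0.12 for Psmb5 (adjusted p = 0.862), 0.12 ± 0.34 for Psmb6 (adjusted p = 0.783) and 0.81 ± 0.37 for Psmb7 (adjusted p = 0.0748). Of the 11 other subunits of the 20S core, 0 were called, and of 18 subunits of the 19S cap 1 fell (Psmc6, an ATPase, -1.84 ± 1.37, adjusted p = 0.0446). Of 9 activators and assembly factors 1 fell (Psme4, -1.72 ± 0.48, adjusted p = 0.0205). Over all tested genes 19.7% were called and 9.17% fell. Psme1, a subunit of the interferon-inducible activator, had 0.54 ± 0.18 (adjusted p = 0.147), and Psme2 had no probe set of its own.

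Tap1 forms the peptide transporter with Tap2. Tap1 had 10.72, 11.11 and 10.85 in KO arrays in IL-2 against 9.87, 9.47 and 9.73 in WT arrays. All KO arrays lay above all WT arrays, and the second pair was the widest. Tap1 rose by 1.21 ± 0.40, or 2.31-fold (adjusted p = 0.0227). This call was lost on leaving out any single array of either cytokine, with adjusted p of 0.0504 to 0.0905 there and of 0.0004 to 0.0905 over all alternatives. Its 3 other probe sets stayed between 1.44 and 2.97 on all arrays, under the limit for a test.

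Tap2, the other subunit of the transporter, had 11.40, 11.42 and 11.26 in KO arrays in IL-2 against 10.98, 10.96 and 11.12 in WT arrays. The genotypes were apart but close, and the difference of 0.34 ± 0.18 did not pass (adjusted p = 0.341). The 95% interval of that difference ran from -0.22 to 0.89.

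Tapbp encodes tapasin, which bridges TAP and the empty class I molecule. It had 13.79, 13.87 and 13.40 in KO arrays in IL-2 against 12.94, 12.87 and 13.34 in WT arrays. The third pair was nearly equal and the others were not, and the difference of 0.64 ± 0.50 did not pass (adjusted p = 0.172). The dimmer Tapbp probe set had the same shape, with pair differences of 1.06, 1.08 and 0.16. The related editor of peptide loading, Tapbpl, was the only gene to rise among 11 helpers of folding and loading, by 1.76 ± 0.25 (adjusted p = 0.00647). Of all tested genes 10.5% rose.

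Erap1 trims the amino end of peptides inside the endoplasmic reticulum, and its brighter probe set was lower in KO NKC. It had 7.84, 7.92 and 8.37 in KO arrays in IL-2 against 9.39, 9.30 and 8.86 in WT arrays. All 3 pairs were lower in KO, and the difference of -1.14 ± 0.57 did not pass (adjusted p = 0.0583). The other Erap1 probe set, at 4.25 to 5.26 and so close to the limit for a test, was higher in KO by 0.55 ± 0.44 (adjusted p = 0.213 over all probe sets), so the probe sets of Erap1 disagree in direction. Among 7 cytosolic and vesicle peptidases only Tpp2, which trims peptides in the cytosol, was called, against 19.7% of all tested genes. Tpp2 fell by 1.39 ± 0.76 (adjusted p = 0.0299).

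B2m encodes beta-2-microglobulin, the invariant light chain. It had 15.50, 15.34 and 15.39 in KO arrays in IL-2 against 14.98, 15.14 and 15.09 in WT arrays. All KO arrays were higher, by 0.34 ± 0.17, and the difference did not pass (adjusted p = 0.34). The other B2m probe set gave 0.46 ± 0.25. The classical heavy chains were close to it, with 0.47 ± 0.15 for H2-K1 (adjusted p = 0.201) and 0.20 ± 0.13 for H2-D1 (adjusted p = 0.585). How far their probe sets also detect related class I genes was not tested. Of 27 listed class I heavy chains and class I-like genes outside the set, 15 had a probe set of their own and 10 were tested. Of these 10, 0 were called, against 19.7% of all tested genes.

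Nlrc5 encodes the transactivator that assembles on class I promoters. It had 11.12, 10.59 and 11.29 in KO arrays in IL-2 against 8.11, 8.64 and 7.94 in WT arrays. The gap between the genotypes was far wider than the spread within either. Nlrc5 rose by 2.77 ± 0.73, or 6.83-fold (adjusted p = 0.00545), and it kept this call under every alternative tried (adjusted p of 0.0001 to 0.0462), as Psmb9 did (at most 0.049).

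H2-Q10 encodes a class I-like molecule that is secreted in mice and best known from the liver. It had 6.14, 7.52 and 7.35 in KO arrays in IL-2 against 11.74, 10.36 and 10.53 in WT arrays. All KO arrays lay far below all WT arrays, and the first pair was the widest apart. H2-Q10 fell by 3.87 ± 1.51, or 14.6-fold (adjusted p = 0.00581). With no filter on low values the adjusted p was 0.053, the highest over the alternatives (0.0002 to 0.053). Class I genes are close relatives, and how far this probe set also detects another of them was not tested.

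**Figure D2:**
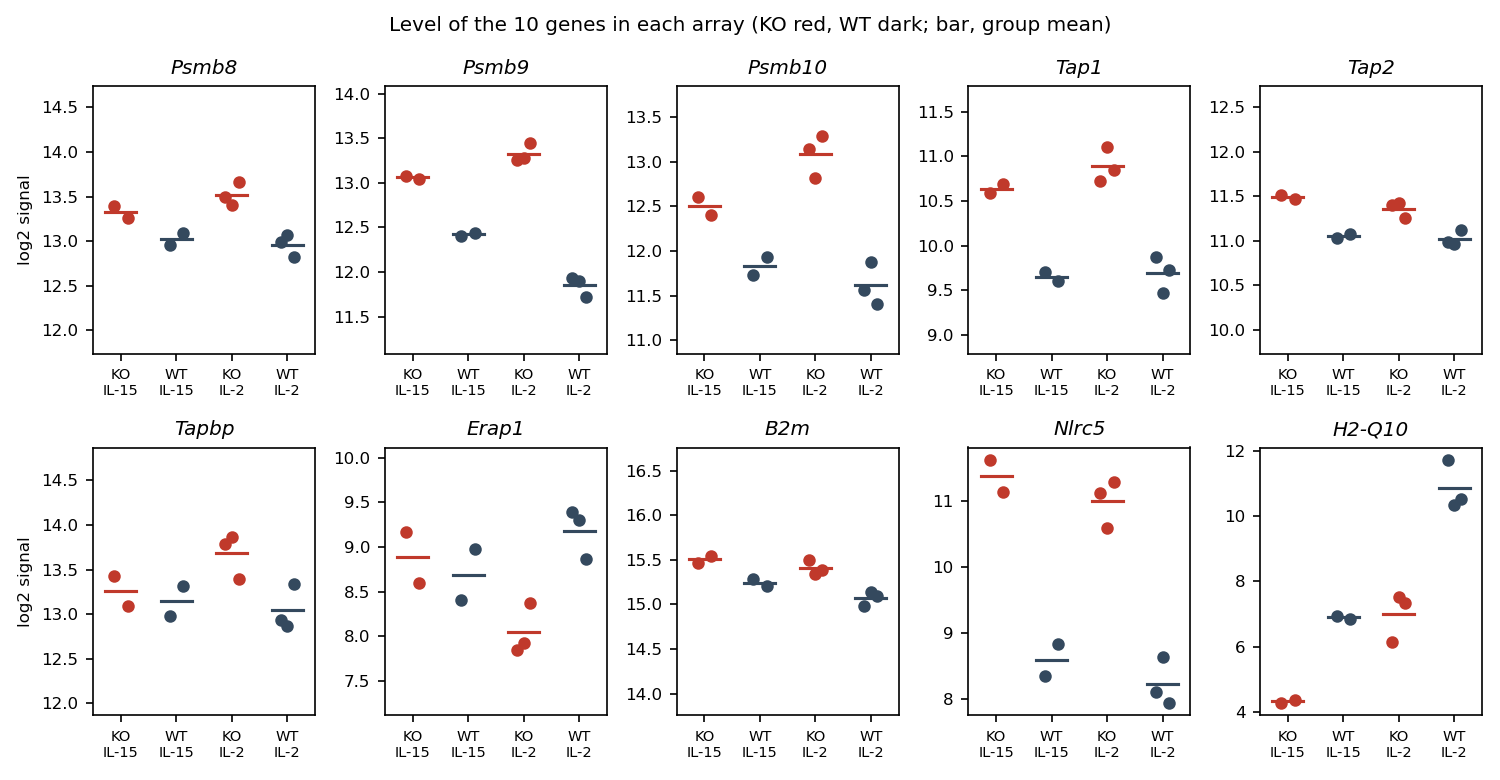
Level of the 10 genes (log2 signal, y axis with its own range in each panel, spanning at least 3 log2 units) in each array of the 4 groups, with bars for group means. Nlrc5 lies between 10.59 and 11.63 in all KO arrays and between 7.94 and 8.83 in all WT arrays, while H2-Q10 is lower in KO and lower in IL-15.

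**Figure D3:**
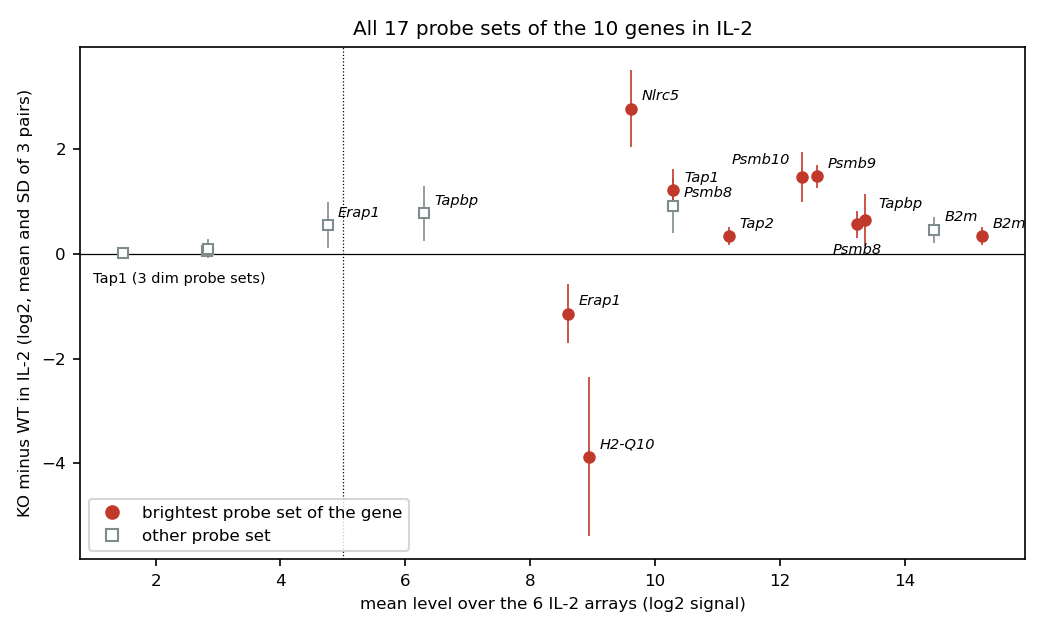
KO minus WT in IL-2 (log2, mean and SD of 3 pairs) against the mean level over the 6 IL-2 arrays for all 17 probe sets, the brightest of each gene filled; the dotted line marks log2 5. The 3 dim Tap1 probe sets and the dimmer Erap1 probe set lie left of that line.

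In IL-2 10.5% of all tested genes rose, the share to set beside the counts that follow. Among genes that act on class I promoters, 1 of 11 tested rose, which is near that share. This was Irf1, an interferon-induced activator, by 1.42 ± 0.47 (adjusted p = 0.015). Rfx5, part of the complex that Nlrc5 works with, had 0.74 ± 1.09 (adjusted p = 0.243). Of 9 tested genes of interferon signalling, 2 rose: Ifng by 1.73 ± 0.41 (adjusted p = 0.015) and the receptor chain Ifnar2 by 0.94 ± 0.34 (adjusted p = 0.0433). Of 30 listed interferon-stimulated genes 28 had a probe set of their own and 22 were tested. Of these 22, 10 rose and 0 fell, with a median difference of 1.34, or 1.25 with group means under log2 5 set to it. Oasl1, Oasl2 and Oas3 reached log2 5 in KO arrays only and were tested for that reason. The count and both medians therefore lean towards genes that are high in KO NKC. The genes that rose included Rtp4, by 2.95 ± 0.48, and antiviral genes whose WT means lay under log2 5. Of the latter, Oasl2 was at least 5.29-fold higher, Oas1a at least 7.12-fold and Oas3 no less than 6.07-fold. Other antiviral genes gave no such signal: Ifit1, Mx1, Mx2, Oas2, Rsad2 and Eif2ak2 were below log2 5 on every array. Among those not called were Ifit3 (0.17 ± 0.23), Usp18 (0.03 ± 2.01), Ifih1 (-0.51 ± 1.19) and Isg20 (-1.02 ± 1.24).

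Other cell type markers also moved with genotype in IL-2. The summed level of 7 measured B cell markers was 11.16 to 11.19 in KO arrays against 8.79 to 8.92 in WT arrays, carried by Blk and Ighm. The sum of 7 mast cell and basophil markers was 6.92 to 8.40 in KO arrays against 12.53 to 14.57 in WT arrays. It was carried by the granule protease genes Mcpt8, which fell by 6.63 ± 2.16, and Cma1, which fell at least 44.5-fold. Fcer1a, Ms4a2, Hdc and Gata2 were below log2 5 on every array. The genotypes did not overlap in either sum. The sums overlapped for T cell markers (12.29 to 12.74 in KO arrays against 11.89 to 12.41 in WT arrays), of which Cd247 rose, and for dendritic cell markers (9.49 to 11.36 in KO arrays against 10.89 to 12.03 in WT arrays). Of these 11, the MHC class II chain H2-Aa rose at least 4.28-fold and its invariant chain Cd74 at least 6.39-fold, Fscn1 (at least 48.2-fold) and Batf3 (by 3.45) fell, and Flt3, Xcr1 and Siglech were below log2 5 on every array. The sum of 6 macrophage markers was 8.60 to 10.57 in KO arrays against 7.97 to 10.58 in WT arrays, with Cd14 (at least 6.4-fold) the only one that fell and Fcgr1 below log2 5 on every array. Of the 12 NKC markers, Ncr1 rose by 2.11 ± 0.98, Klrc1 by 1.85 ± 1.16 and Tbx21 by 1.42 ± 0.67, and Prf1 fell by 1.73 ± 0.94. The part of these markers in the results for the class I genes was not tested. In bulk samples, fewer cells of a type and less RNA per cell cannot be told apart.

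In IL-15, Nlrc5 was the only one of the 10 genes called between KO and WT NKC, and 0 fell. Over all tested genes 0.458% rose, 0.841% fell and 1.3% did either, on 2 pairs. The median KO minus WT difference of the 10 genes was 0.37, against -0.01 for all tested genes. For 8 of the 10 the genotypes did not overlap (7 higher and 1 lower in KO), as for 64.6% of all tested genes (31.7% higher and 32.9% lower).

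Nlrc5 had 11.63 and 11.14 in KO arrays in IL-15 against 8.34 and 8.83 in WT arrays. The genotypes were as far apart as in IL-2. Nlrc5 rose by 2.80 ± 0.69, or 6.95-fold (adjusted p = 0.0426). The call was lost without either IL-15 pair, without the first or the third IL-2 pair, with no filter and with other uses of the probe sets, at adjusted p of 0.0519 to 0.403 (0.0014 to 0.403 over all alternatives).

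H2-Q10 had 4.27 and 4.37 in KO arrays in IL-15 against 6.94 and 6.85 in WT arrays. Both KO arrays were under log2 5, and both WT arrays above it. The difference was -2.57 ± 0.13 and at least 3.71-fold against log2 5, and it did not pass (adjusted p = 0.127; 0.015 to 0.671 over the alternatives).

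Tap1 had 10.59 and 10.69 in KO arrays in IL-15 against 9.70 and 9.60 in WT arrays. The genotypes were apart, by 1.0 ± 0.14 (adjusted p = 0.221). Psmb9 had 13.08 and 13.04 in KO arrays against 12.40 and 12.44 in WT arrays, a difference of 0.65 ± 0.06 (adjusted p = 0.403). These pairs agreed closely with each other, but neither gene passed the test.

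Psmb10 had 12.60 and 12.40 in KO arrays in IL-15 against 11.73 and 11.93 in WT arrays (0.67 ± 0.29, adjusted p = 0.469). Psmb8 had 13.39 and 13.26 in KO arrays against 12.96 and 13.09 in WT arrays (0.30 ± 0.19, adjusted p = 0.763). Both were higher in both KO arrays. Tap2 had 11.51 and 11.47 in KO arrays against 11.03 and 11.08 in WT arrays (0.43 ± 0.06, adjusted p = 0.603). B2m had 15.47 and 15.54 in KO arrays against 15.28 and 15.21 in WT arrays (0.26 ± 0.10, adjusted p = 0.797). KO and WT arrays did not overlap for any of these genes.

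Tapbp and Erap1 had pairs that went opposite ways in IL-15. Tapbp had 13.43 and 13.09 in KO arrays against 12.98 and 13.32 in WT arrays (0.11 ± 0.48, adjusted p = 0.958). Erap1 had 9.17 and 8.60 in KO arrays against 8.40 and 8.98 in WT arrays (0.19 ± 0.81, adjusted p = 0.919). The genotypes overlapped for both.

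**Figure D4:**
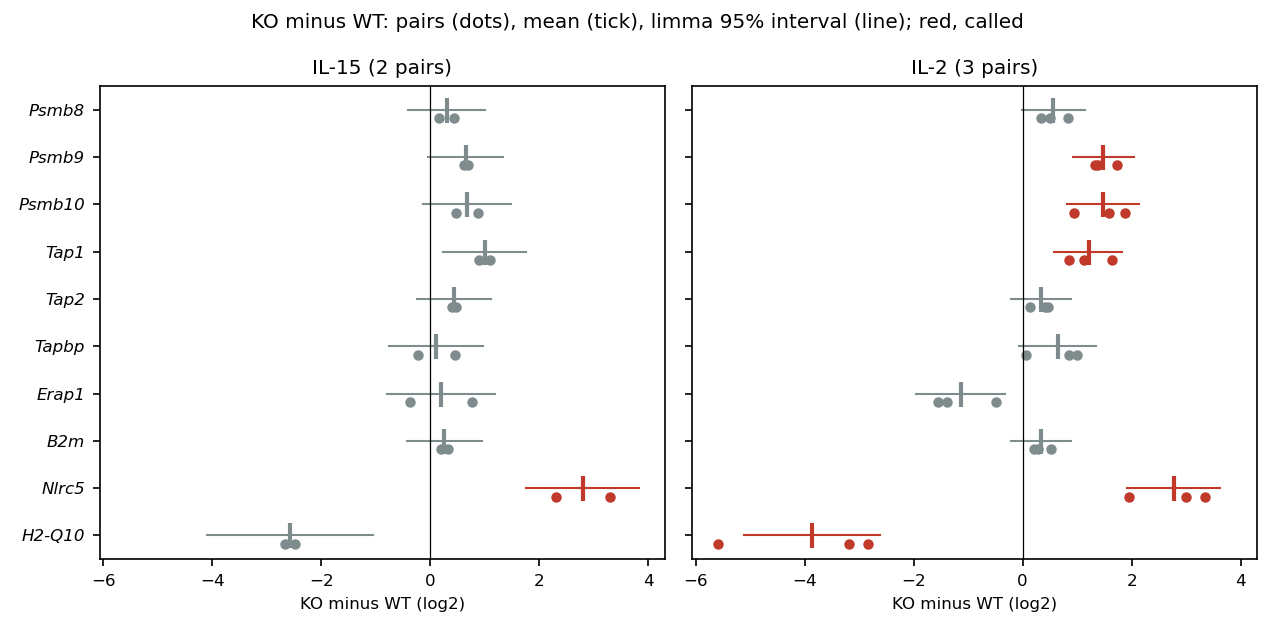
KO minus WT (log2, x axis) of the 10 genes in IL-15 (left) and IL-2 (right), with dots for pairs, a tick for the mean and a line for limma's 95% interval; red marks called genes. In IL-2 4 genes lie to the right and H2-Q10 to the left in red, and in IL-15 only Nlrc5 is red.

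The lists around the pathway held 0 called genes in IL-15, where 1.3% of all tested genes were called, so that 0 says little about lists this short. Called were 0 of 3 constitutive catalytic subunits, 0 of 10 heavy chains, 0 of 11 regulators and 0 of 9 genes of interferon signalling. Of the same 22 interferon-stimulated genes, some of them tested only through their KO arrays, 0 were called. Their median difference was 0.57, or 0.27 with group means under log2 5 set to it. Irf1 had 0.52 ± 0.07 (adjusted p = 0.585), Ifng 1.16 ± 0.90 (adjusted p = 0.26) and Rfx5 0.94 ± 0.07 (adjusted p = 0.493). The mast cell and basophil sum was 6.04 to 6.73 in KO arrays in IL-15 against 9.79 to 11.12 in WT arrays. Of those markers, Mcpt8 fell at least 23.9-fold and Cpa3 at least 4.74-fold. The B cell sum was 10.76 to 11.68 in KO arrays against 9.84 to 10.75 in WT arrays. For T cell markers it was 13.21 to 13.31 in KO arrays against 12.72 to 13.11 in WT arrays. For NKC markers it was 17.24 to 17.32 in KO arrays against 17.47 to 17.54 in WT arrays. The dendritic cell and macrophage sums overlapped between the genotypes.

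**Figure D5:**
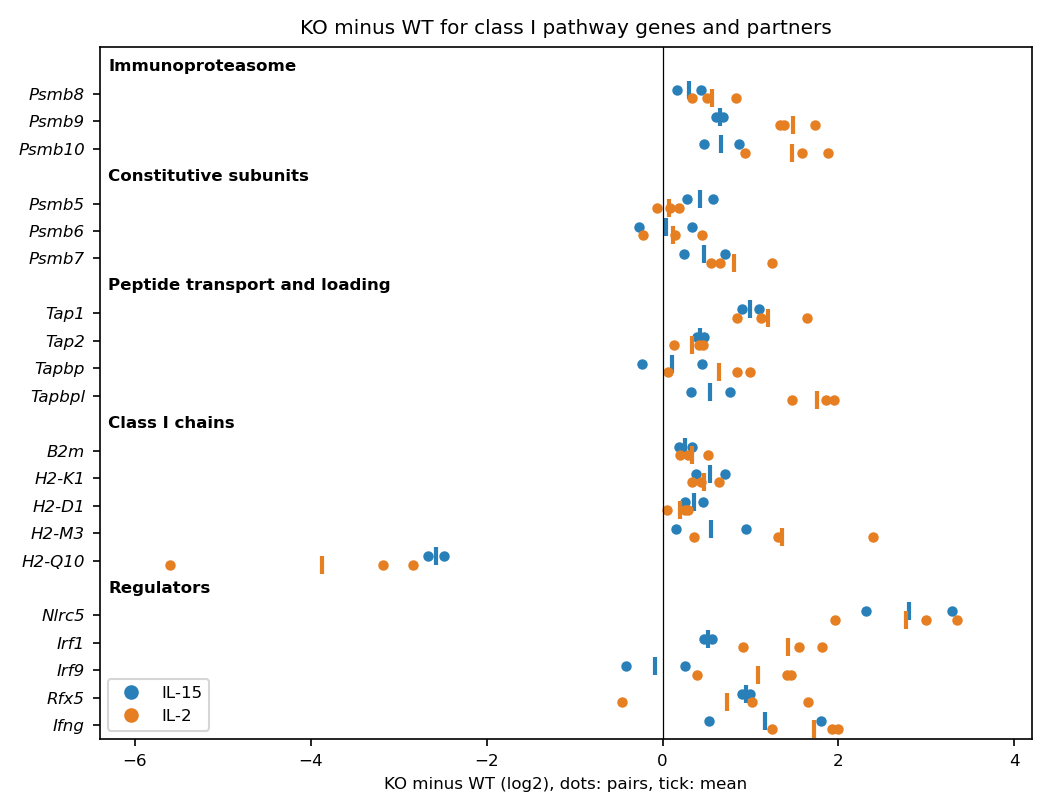
KO minus WT (log2, x axis) in IL-15 (blue) and IL-2 (orange) for the class I genes and their partners, with dots for pairs and a tick for the mean. In IL-2 Psmb8, Psmb9 and Psmb10 lie at 0.56, 1.48 and 1.47, Psmb5, Psmb6 and Psmb7 at 0.07, 0.12 and 0.81, and H2-Q10 at -3.87.

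Whether the effect of Runx3 loss differed between the cytokines was tested as the KO minus WT difference in IL-15 minus that in IL-2. In this contrast, too, cytokine and the sex of the mice cannot be told apart. Of the 10 genes 0 were called, as were 0 of all 9391 genes (0%), while 1 of the 10 and 1106 of all genes had an unadjusted p under 0.05. For Nlrc5 the effects were nearly equal, with a difference of 0.03 and a 95% interval from -1.31 to 1.36. The difference was 1.33 for Erap1 (interval 0.05 to 2.61, adjusted p = 0.412), -0.83 for Psmb9 (interval -1.72 to 0.06, adjusted p = 0.451) and -0.80 for Psmb10 (interval -1.85 to 0.25, adjusted p = 0.515). No value is given for H2-Q10, whose KO arrays in IL-15 lay under log2 5. These intervals are wide, so they do not show that the effects were alike.

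IL-15 was then set against IL-2 within each genotype, where H2-Q10 stood out. These comparisons have no pair to block on, and their p-values are too small by an unknown amount because pair differences had been removed. They also cannot tell cytokine from the sex of the mice. In KO NKC 1 of the 10 rose and 2 fell, whereas 46.1% of all tested genes were called (23.6% higher and 22.5% lower). In WT NKC 0 rose and 1 fell, whereas 48% of all tested genes were called (29.4% higher and 18.7% lower). Between cytokines 7 of the 10 did not overlap in KO arrays, 2 higher and 5 lower (all genes 68.3%, with 31.8% higher and 36.5% lower). In WT arrays 3 did not overlap, 2 higher and 1 lower (all genes 70%, with 41.1% higher and 28.9% lower).

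H2-Q10 fell by 2.69 in KO NKC in IL-15 relative to IL-2 (at least 4.02-fold against log2 5, adjusted p = 0.00217) and by 3.98 in WT NKC (15.8-fold, adjusted p = 0.000305). From the lowest group up, its means were 4.32 in KO in IL-15, 6.89 in WT in IL-15, 7.01 in KO in IL-2 and 10.88 in WT in IL-2. The middle groups, at 6.94 and 6.85 in WT in IL-15 and 6.14 to 7.52 in KO in IL-2, overlapped, and the outer groups stood clear of them.

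Nlrc5 was ordered by genotype first, and within each genotype its mean was higher in IL-15, by a difference that was not called. Its means were 11.38 in KO in IL-15, 11.00 in KO in IL-2, 8.58 in WT in IL-15 and 8.23 in WT in IL-2. Arrays of one genotype overlapped between cytokines, with IL-15 minus IL-2 of 0.38 in KO (adjusted p = 0.31) and 0.35 in WT (adjusted p = 0.337).

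Psmb9 had cytokine differences of opposite sign in the genotypes, neither of them called in the deposited scale. Its mean was 13.06 in KO in IL-15 and 13.33 in KO in IL-2, a difference of -0.27 (adjusted p = 0.114), and 12.42 in WT in IL-15 and 11.85 in WT in IL-2, a difference of 0.57 (adjusted p = 0.00621). The WT difference missed the limit of 1.5-fold in the deposited scale and passed it with arrays centred on their medians (0.63). No arrays overlapped in either genotype, as for 68.3% of all tested genes in KO and 70% in WT.

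Psmb10 fell by 0.59 in KO NKC in IL-15 (1.5-fold, adjusted p = 0.0341), where it had 12.60 and 12.40 against 13.14, 12.82 and 13.29 in IL-2. That call lay at the limit and was lost with centred arrays (0.50 lower, adjusted p = 0.0913), with quantile normalization (1.5-fold not reached) and on leaving out KO array 1 or 3 in IL-2 or either KO array in IL-15 (adjusted p up to 0.18; 0.0148 to 0.18 over all alternatives). In WT NKC IL-15 minus IL-2 was 0.21 for Psmb10 (adjusted p = 0.378).

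Erap1 rose by 0.84 in KO NKC in IL-15 (1.79-fold, adjusted p = 0.0321), with 9.17 and 8.60 against 7.84, 7.92 and 8.37 in IL-2. The call was lost with no filter, with quantile normalization, with the mean of its probe sets and without KO array 1 or 2 in IL-2 or KO array 1 in IL-15 (adjusted p of 0.0537 to 0.226; 0.022 to 0.226 over all alternatives). In WT NKC the difference was -0.49 (adjusted p = 0.162), and quantile normalization gave -0.76 (adjusted p = 0.048), which passed.

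The remaining genes were not called between cytokines. In KO NKC IL-15 minus IL-2 was -0.43 for Tapbp, -0.25 for Tap1, -0.20 for Psmb8, 0.13 for Tap2 and 0.09 for B2m. In WT NKC it lay between -0.04, for Tap1, and 0.17, for B2m. The dimmer Tapbp probe set, at 5.61 to 6.85, was 0.98 lower in KO NKC in IL-15 and passed the test over all probe sets (adjusted p = 0.00475), unlike the brighter one. All 3 constitutive subunits fell in IL-15, as did 22.5% of all tested genes in KO and 18.7% in WT. The fall was 0.84 in KO and 1.20 in WT for Psmb5, 0.91 in KO and 0.82 in WT for Psmb6, and 1.10 in KO and 0.76 in WT for Psmb7. Other proteasome genes fell too. Of 18 subunits of the 19S cap 7 fell and 1 rose in KO, and 5 fell and 0 rose in WT. Of 11 other subunits of the 20S core 2 fell and 0 rose in each genotype. Of 9 activators and assembly factors 6 fell and 1 rose in KO, and 4 fell and 1 rose in WT.

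The genes outside the set with the pattern most like it over the 10 arrays were found by Pearson's r among 9381 tested genes, as a description. Nearest to the mean of Psmb8, Psmb9 and Psmb10 were Tnfrsf25 (r = 0.992), Phf19 (0.988), Ccdc69 (0.987), Pus3 (0.987) and Stmn1 (0.986). Nearest to Nlrc5 were Krt83 (r = 0.989), Bank1 (0.986), Mag (0.986), 9130023H24Rik (0.983) and St6gal1 (0.979). Nearest to H2-Q10 were Mvd (r = 0.987), Pmvk (0.986), Tmem120b (0.985), Klhl30 (0.984) and Dusp14 (0.983), of which Mvd and Pmvk encode enzymes of the mevalonate pathway. The 10 arrays share 4 groups and mirrored pairs, so such values are high for any genes that separate the groups alike.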

How the data were processed

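The authors deposited log2 signals per probe set, made by GC-RMA with Partek software (no version is given in the sources used here). They were used as deposited, from 10 arrays with medians of 3.20 to 3.37, whose number limits the precision. Of 45101 probe sets, 34958 had 1 gene symbol in the platform's table, 932 several and 9211 none listed there, and only those with 1 symbol were named. The gene value was the probe set with the highest mean, tested where it reached log2 5 in at least 2 arrays. Replicates were separate mice.

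That pairs had been equalised was checked on the file: pair sums differed by at most 0.00013 in IL-15 and 0.00014 in IL-2, and those of crossed pairs by a median of 0.17 and 0.193. The numbered pair was therefore a block for KO against WT and for the difference of effects (3 residual degrees of freedom), and no block was possible for IL-15 against IL-2 (6 residual degrees of freedom). All contrasts were fitted in limma 3.58.1 (lmFit and eBayes, R 4.3.3) to all 10 arrays, with Benjamini-Hochberg adjustment over 9391 genes, and the fits were tested on simulated data. Where the dimmer group's mean was under log2 5, the fold is a lower limit against log2 5.

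The alternatives were no block, no filter, a filter at log2 6, the mean of a gene's probe sets, every probe set on its own, centred arrays, quantile normalization, a variance trend, the study's thresholds (unadjusted p under 0.05 and 1.5-fold) and leaving out each array. Named were all 10 genes, their constitutive counterparts and partners chosen by name, at most the 4 largest called changes each way of each list, and the 5 most alike genes. The genes and lists were chosen with earlier results of these data known. Promoter windows are from RefSeq (GRCm38.p6).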

Additional observations from a re-analysis of the deposited data

Results flagged for a closer look

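Psmb9 was singled out because IL-15 and IL-2 arrays were apart in both genotypes and the differences of their means had opposite signs. IL-15 minus IL-2 was -0.27 in KO NKC and 0.57 in WT NKC, with no overlap of arrays between cytokines in either. Such a lack of overlap was found for 68.3% of all tested genes in KO and 70% in WT, and neither difference was called. The difference between the genotypes is the same contrast as the difference of KO effects between cytokines, -0.83, which did not pass (limma, adjusted p = 0.451).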

How the results depend on the processing

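Of 925 recomputed values of the 10 genes, 848 kept their direction and their side of the threshold, 36 lost a call, 18 gained one and 23 changed direction. In KO against WT in IL-2, where 1851 genes and 5 of the 10 were called, all genes numbered 3803 without the replicate block, 842 with no filter, 2924 with every probe set on its own and 3391 at the study's thresholds, and 537 to 1525 (3 to 5 of the 10) on leaving out an array, the lowest without array 1 of either genotype. In IL-15, where 122 genes and 1 of the 10 were called, the counts were 1321 and 4 without the block, 0 and 0 with no filter, 44 and 0 with the mean of probe sets, 0 of the 10 with every probe set on its own, 1269 and 3 at the study's thresholds, and 0 to 95 and 0 to 1 on leaving out an array. For the difference of effects (0 and 0), they were 1157 and 1 without the block, 4 genes with the filter at log2 6, 1106 and 1 at the study's thresholds, and 0 to 1 genes on leaving out an array.

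Without the block the spread is too small in these mirrored values. For IL-15 against IL-2, where no block was possible, 4326 called genes in KO and 4512 in WT became 8337 and 8802 with every probe set on its own. Of the 10, 3 in KO became 1 with quantile normalization and 1 to 3 on leaving out an array, and 1 in WT became 2 with centring and with quantile normalization and 1 to 2 on leaving out an array. With the mean of probe sets, Tap1 did not pass the filter and had no value. Quantile normalization gave a median over all genes of -0.20 in KO and -0.05 in WT, where the deposited scale gave -0.08 and 0.18. It made 2012 higher and 2733 lower calls in KO, where the deposited scale made 2217 and 2109, and 2147 higher and 2457 lower calls in WT, where the deposited scale made 2758 and 1754.

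Changes of direction were confined to values that were not called. The difference of effects of B2m became 0.0935 with quantile normalization. In WT, IL-15 minus IL-2 became 0.0195 for Tap1 with centring, -0.182 for Tap2 with quantile normalization and -0.0564 for Tapbp with the mean of probe sets. On leaving out an array, KO minus WT in IL-15 ranged from -0.379 to 0.763 for Erap1 and from -0.23 to 0.451 for Tapbp. The difference of effects ranged from -0.149 to 0.0137 for B2m, from -0.464 to 0.517 for Nlrc5, from -0.385 to 0.0106 for Tap1 and from -0.006 to 0.158 for Tap2. IL-15 minus IL-2 in WT ranged from -0.0083 to 0.131 for Psmb8, from -0.153 to 0.0447 for Tap1 and from -0.07 to 0.27 for Tapbp. The cause of these changes was not tested.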

Other observations

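Some further class I heavy chain signals differed strongly between pairs, and others did not. Of 12 probe sets that the platform's table assigns to several symbols including a class I heavy chain, 10 reached log2 5 in at least 2 arrays, and KO minus WT in IL-2 ranged from -1.06 to 6.49 over them, with 5 higher in all 3 pairs and 0 lower in all 3. The SD over pairs ranged from 0.07 to 8.13. The probe set with the largest difference, singled out after its values were seen and listed under 2 symbols, had 14.38, 7.46 and 14.62 in KO arrays in IL-2 against 3.44, 10.36 and 3.2 in WT arrays. The second pair thus ran opposite to the others. In IL-15 it had 11.44 and 11.81 in KO arrays against 10.22 and 9.85 in WT arrays. H2-Q5, with a probe set of its own, had pair differences of -1.09, 3.87 and 0.97 in IL-2.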
